A study of Mus musculus with 6 samples.

Results

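Ciliated cells were selected from 2 droplet libraries of whole mouse lungs at embryonic day 18.5 (E18.5), which held 148 of them among 18683 cell barcodes. A barcode was kept if, after the authors' SoupX adjustment for free RNA, it held at least 700 genes and 0.5 to 10% mitochondrial UMIs (unique molecular identifiers, which stand for single captured mRNA molecules). It was taken as a ciliated cell if it also held a Foxj1 value of at least 1, a summed Ccdc153 and Tmem212 value of at least 3, and no Ptprc, Pecam1 or Cdh5. The cells were thus chosen by measured values of these genes, so their levels of Foxj1, Ccdc153 and Tmem212 are given as a description, and so is every level set against other epithelial cells.

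One library is labelled null, for Cxcl12DsRed/DsRed lungs, in which both Cxcl12 alleles carry a DsRed knock-in that removes the ligand, and the other is labelled control, for Cxcl12DsRed/+ lungs, so that by either label every lung carried at least 1 knock-in allele. The study speaks of a pair of lungs per genotype, and the cells of a library are not assigned to single lungs. Each genotype had 1 library, so no p-value or standard error can be given, and every interval below covers counting error only, at a level of 95%. A further 4 libraries held DsRed-positive cells sorted from Cxcl12DsRed/+ lungs after selection against EpCAM (3 embryonic times from E13.5 to E18.5 and postnatal day 8), and 0 of their cells met the limits. The 2 whole-lung libraries shared 140 barcodes, of which 3 and 7 were ciliated in 1 library and 0 in both.

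The targeted gene went against the labels. Cxcl12 had 19230 UMIs, or 191.5 CPM (UMIs scaled to one common total per set of cells), in the kept cells of the library labelled null, and 96 UMIs, or 1.27 CPM, in those of the library labelled control. The names of the deposited files also carry the opposite genotypes. Genotypes are therefore written as "the library labelled null" and "the library labelled control" throughout, and every direction between the libraries rests on labels that this gene contradicts.

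Multiciliated airway cells carry many motile cilia that beat to move mucus. Their differentiation passes through a stage in which regulators such as GMNC and MCIDAS switch on the Foxj1, Rfx and Myb genes and centrioles are made in bulk, partly on deuterosomes built from DEUP1. Axonemes then grow by intraflagellar transport and take up dynein arms, radial spokes, nexin links and a central pair. In the airway, Notch signalling is known to favour secretory over ciliated fate.

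FOXJ1 works with RFX factors, which bind X-box motifs. The letters GTTGCC and GGNAAC, separated by 0 to 3 bases, were searched for on either strand in RefSeq promoter windows of the GRCm38.p6 assembly. Only the 250 bases before each gene start were searched, and not the 50 bases after it. These letters were present in 150 of 32851 windows (0.457%). They were present in 12 of the 432 windows (2.78%) that belong to 355 matched genes of the 440 at least 8-fold higher in ciliated cells, described below, and in 12 of 2653 windows (0.452%) of the other genes of at least 50 CPM in both libraries. Of those 12 windows, 8 are printed here because they belong to ciliated genes described in the text or to cilium transport and axoneme genes, with Mdh1b as a further example, and with the stretch around the match in gene orientation and the matched letters in capitals.

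1110017D15Rik: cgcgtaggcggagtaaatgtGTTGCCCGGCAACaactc
Fam183b: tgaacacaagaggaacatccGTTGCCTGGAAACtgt
Pifo: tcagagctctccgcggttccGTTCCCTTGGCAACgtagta
Ift57: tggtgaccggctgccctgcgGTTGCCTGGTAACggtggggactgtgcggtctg
Bbs7: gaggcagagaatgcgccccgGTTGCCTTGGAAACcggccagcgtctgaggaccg
Lztfl1: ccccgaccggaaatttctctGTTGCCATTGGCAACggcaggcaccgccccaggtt
Iqca: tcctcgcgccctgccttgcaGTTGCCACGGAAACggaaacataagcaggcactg
Mdh1b: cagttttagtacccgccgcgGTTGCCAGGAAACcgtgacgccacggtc

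On GRCm38.p6 these stretches lie at chr4:41507765-41507802 (minus strand, 1110017D15Rik), chr11:58801961-58801996 (minus, Fam183b) and chr3:106001498-106001537 (minus, Pifo). Those of the transport genes lie at chr16:49699214-49699266 (plus strand, Ift57), chr3:36613477-36613530 (minus, Bbs7) and chr9:123717755-123717809 (minus, Lztfl1), and the last pair at chr1:90153503-90153556 (minus, Iqca) and chr1:63730319-63730366 (minus, Mdh1b). The match ended 3 bases before the RefSeq start of the window in Fam183b, 5 in 1110017D15Rik, 6 in Pifo and 15 in Mdh1b, and 149 bases before it in Lztfl1. For 1110017D15Rik and Pifo the match was in 1 of 2 windows. Their printed stretches lie within the genes as annotated in GENCODE M21, at chr4:41505009-41517333 and chr3:105996957-106014646 (both minus strand). The matched letters of Ift57 also lie within its gene as annotated there, at chr16:49699233-49765126 (plus strand), although its printed stretch begins before the gene. The forkhead letters GTAAACA, which do not overlap the X-box letters, were present in 3.17% of all windows, in 3.47% of the 432 and in 1.885% of the 2653 windows of the other genes. Matched letters are a description of the window and not a site of binding.

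With the selection on adjusted values, ciliated cells made up nearly the same share of both libraries. The library labelled null held 82 among 9067 kept cells, a share of 0.904% (exact binomial interval 0.720 to 1.12%), and the library labelled control held 66 among 7448, or 0.886% (0.686 to 1.13%). The difference of 0.0182 percentage points had an interval of -0.279 to 0.306 (Newcombe's method, as for the other differences of shares). With the selection on unadjusted counts the libraries labelled null and control held 58 and 61 ciliated cells, so the order of the counts turned. Shares were not computed for that selection. Against other epithelial cells, again with adjusted values, the shares stood further apart. Barcodes with Epcam and without the ciliated markers numbered 359 in the library labelled null and 550 in that labelled control, so that ciliated cells were 18.6% (15.1 to 22.6%) and 10.7% (8.38 to 13.4%) of both kinds together, a difference of 7.88 points (3.58 to 12.4). Set against secretory cells, the other main airway type (Cyp2f2 with Scgb1a1 or Scgb3a2; 115 and 127 cells), the ciliated share was 41.6% and 34.2%, a difference of 7.43 points (-2.19 to 16.9), whose interval includes 0. Among the other epithelial cells, those with Ager and Hopx, of alveolar type 1, numbered 131 and 195, and those with Lamp3 and Sftpc, of alveolar type 2, 10 and 66.

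The label was checked in genes that the selection did not use. Dynlrb2, a dynein light chain, was at 1622 CPM (1572 to 1674) in the library labelled null and 1554 CPM (1502 to 1608) in that labelled control, against 7.47 and 8.61 CPM in other epithelial cells. Every ciliated cell held UMIs of Dynlrb2, with a lowest, median and highest count of 7, 44 and 119 UMIs per cell in the first library and 14, 47.5 and 145 in the second. Tppp3, a microtubule protein, was at 2581 and 2349 CPM against 9.87 and 11.4. Foxj1 itself was at 415 CPM (389 to 441) and 366 CPM (341 to 392), with 3, 12 and 35 UMIs per cell and 3, 10 and 47. Of 8 basal cell markers 4 had 0 UMIs in the ciliated cells of both libraries, Krt5 among them. The list summed to 35.1 and 36.9 CPM against 246 and 192.5 CPM in other epithelial cells. That sum covers the listed markers only. Krt15, a keratin gene outside the list, was at 162 and 206 CPM in the 74 and 58 ciliated cells with fewer centriole-stage UMIs. In the 8 and 8 cells with more, described below, Krt15 was at 12.3 and 37.1 CPM. Of 11 neuroendocrine markers 6 had 0 UMIs, Chga among them, and the list summed to 28.0 and 30.5 CPM against 7.05 and 29.5 CPM. A count of 0 allows at most 1.26 and 1.39 CPM.

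Ciliated cells were deeper and richer in genes than their neighbours. Their median was 23219.5 UMIs and 5523.5 genes in the library labelled null and 26114.5 UMIs and 5619 genes in that labelled control, against 17419 and 13557.5 UMIs in other epithelial cells. Secretory cells alone had a median of 20168 and 17512 UMIs and 3835 and 3738 genes. The 54 and 39 ciliated cells without RNA of other types, described below, were closer to them in depth, at 20906 and 18810 UMIs, with 5216 and 4904 genes. After cells were thinned to 2000 UMIs, which left out 2 shallower epithelial cells of the library labelled control, ciliated cells still held a median of 1206 and 1176 genes and other epithelial cells 865 and 886.5. Summed depth was 2390463 and 2165604 UMIs, and levels below are these summed unadjusted UMIs as CPM. The 3′ counts are not per length, so levels are compared between cells and libraries and not between genes.

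They also held more mitochondrial RNA. Before SoupX the median mitochondrial share was 7.06% and 6.28% in ciliated cells, against 4.201% and 4.261% in other epithelial cells, and nuclear genes of oxidative phosphorylation, 20 in number, summed to 10846 and 9869 CPM against 7908 and 6952. The upper limit of 10% removed a larger share of ciliated than of other epithelial barcodes. Of barcodes with 700 genes that met the ciliated marker limits, 36 of 119 (30.3%, interval 22.2 to 39.4%) and 23 of 89 (25.8%, 17.1 to 36.2%) lay above it, against 16 of 384 (4.17%) and 42 of 670 (6.27%) of other epithelial barcodes. Genes that the limits did not use were also present in the removed cells. Together with 1 barcode of the library labelled null that lay below 0.5%, they held Sntn, an apical protein of cilia, at 347 and 363 CPM and the outer arm heavy chain Dnah5 at 272 and 373 CPM. Without the upper limit the libraries held 118 and 89 ciliated cells.

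Over the whole table, 440 of 3055 genes of at least 50 CPM in the ciliated cells of both libraries (14.4%) were at least 8-fold higher there than in other epithelial cells of the same library, in both libraries; the 3 genes of the selection are among them. Ratios add 0.5 CPM to each level. Against secretory cells alone 413 genes (13.5%) passed the same limit, of which 406 (98.3% of the 413 and 92.3% of the 440) also passed it over all other epithelial cells. Against cells with Ager and Hopx the number was 432 (14.1%), of which 414 were shared. Both neighbours are part of the other epithelial cells and all 3 comparisons share the ciliated values, so the overlap is a description.

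The top of that list held genes of the axoneme beside others. The inner arm heavy chain Dnah12 was at 440 CPM (414 to 468) in the library labelled null and 377 CPM (352 to 404) in that labelled control, with 0.282 and 0.113 CPM in other epithelial cells and at least 1 UMI in each of the 148 ciliated cells. Spag17 and Hydin, of the central pair, were at 482 and 424 CPM and at 283 and 234 CPM, against at most 1.13 CPM in other epithelial cells. Rsph1, a head protein of the radial spoke, was at 1912 and 1924 CPM, and Dnali1, an inner arm light chain, at 395 and 347 CPM. Fam183b, whose window is printed above, was at 1653 and 1499 CPM, 1110017D15Rik at 916 and 832 CPM and Pifo, which is tied to cilium disassembly, at 615 and 566 CPM. Meig1, known from sperm assembly, was at 976 and 955 CPM. Kcnmb2, a potassium channel subunit, had 141 and 132 CPM with 0 UMIs in the other epithelial cells of both libraries, which allows at most 0.423 and 0.340 CPM. The remaining named genes of the top 20 (AU040972, Tctex1d4, Lrrc23, 1700007K13Rik, 3300002A11Rik, Stmnd1, Efcab10, Lrriq1, 1700012B09Rik and 1700001C02Rik) lay between 141 and 870 CPM.

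The regulators of multiciliation were present at modest levels. Of 17 listed genes, 4 reached 50 CPM in both libraries and 3 of these were at least 8-fold higher than in other epithelial cells, namely Foxj1, Myb and Fank1. Myb, which acts early in the programme, was at 237 CPM (218 to 258) and 201 CPM (183 to 221) against 2.11 and 2.61. Rfx3 was at 97.5 and 78.5 CPM against 8.60 and 10.2, short of 8-fold in the library labelled control. Trp73, which encodes p73, and Rfx2 stayed below the level limit, at 42.3 and 39.7 CPM and at 41.4 and 34.6 CPM, but were at or below 0.91 CPM in other epithelial cells. Noto had 0 UMIs in both libraries.

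**Figure D1:**
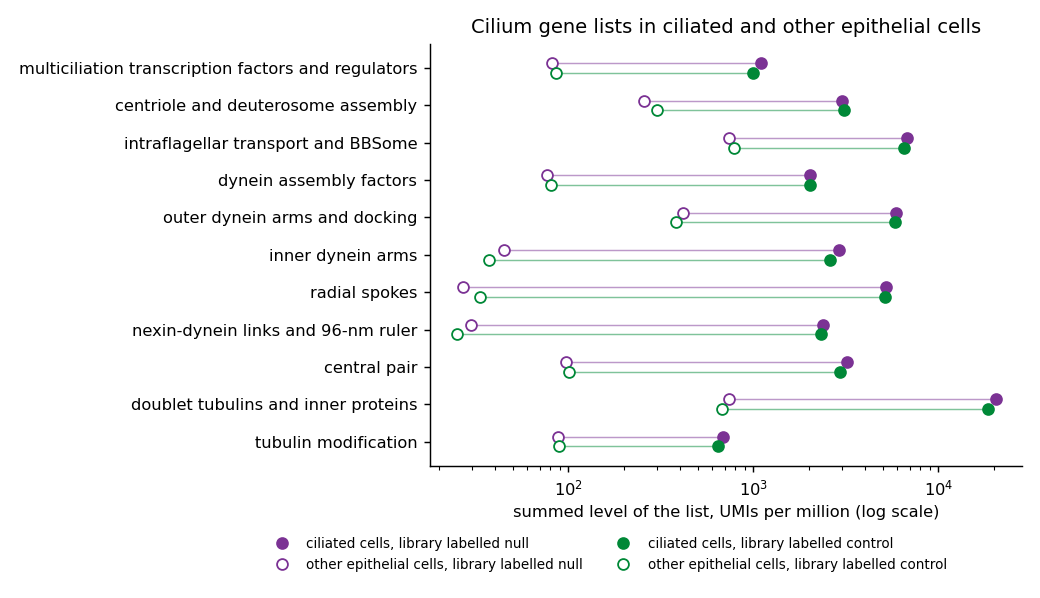
Summed level of each list of cilium genes, in CPM on a log scale, in ciliated cells (filled circles) and other epithelial cells (open circles) of the library labelled null (purple) and that labelled control (green), 1 library each and no error bars. Every list lies to the right in ciliated cells, with radial spokes furthest apart (5232 and 5121 against 27.1 and 33.2) and both libraries close together.

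The structural lists of dynein arms and their assembly, radial spokes, nexin links, central pair and doublet proteins held 128 measured genes (the plot of summed list levels). Of these, 101 reached 50 CPM in both libraries, and 96 of the 101 were at least 8-fold over other epithelial cells. Measured genes numbered 15 for inner arms, 18 for radial spokes, 13 for nexin links and 14 for assembly factors. They numbered 18 for outer arms, 19 for the central pair and 31 for doublets. Of the genes that reached 50 CPM in both libraries, 12 of 12 for inner dynein arms, 15 of 15 for radial spokes, 9 of 9 for nexin-dynein links and the 96-nm ruler and 11 of 11 for cytoplasmic dynein assembly factors were at least 8-fold over other epithelial cells, beside 14.4% of all genes tested. The same held for 12 of 14 outer arm and docking genes, 14 of 16 central pair genes and 23 of 24 doublet tubulins and inner proteins. Lists of genes that other cells use too were less set apart, with 21 of 31 for intraflagellar transport and the BBSome, 7 of 11 for centriole and deuterosome assembly, 4 of 5 for tubulin modification and 2 of 4 for planar polarity and the apical membrane. Of ciliated airway marker genes outside the axoneme it was 20 of 25, and Cbr2, a carbonyl reductase that secretory cells are known for, stood lower in ciliated cells, at 1193 and 1302 CPM against 2301 and 1929. Since all these cells were selected on 3 ciliated genes, the counts describe the selection and are no test of it.

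Within the arms, Dnah5 was at 206 CPM (188 to 225) and 151 CPM (135 to 168), and Dnaic1, an intermediate chain, at 95.8 and 102 CPM with 0 UMIs in other epithelial cells of both libraries. Dnah9, an outer arm heavy chain of the distal cilium, was at 188 CPM (171 to 206) and 112 CPM (98.1 to 127). Ccdc39 and Ccdc40, which set the 96-nm repeat, were at 473 and 441 CPM and at 205 and 173 CPM. Zmynd10, which helps to assemble dyneins before transport, was at 354 and 316 CPM against 1.41 and 1.93. Loss of any of these genes is known to cause human disease of motile cilia, and each was at or below 1.93 CPM in other epithelial cells.

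Tubulins stood on both sides. Tubb4b, the main beta tubulin of axonemes, was at 6619 CPM (6516 to 6723) and 5953 CPM (5850 to 6056) against 191 and 164 in other epithelial cells, and Tuba1a at 2653 and 2304 CPM against 55.8 and 61.1. Tubb5, a general beta tubulin, stood lower in ciliated cells, at 86.2 and 78.0 CPM against 217 and 198. Transport genes stood above a level that other cells also held, with Ift74 at 524 and 478 CPM against 20.2 and 19.03, Ift88 at 192 and 158 CPM against 8.03 and 9.97 and Ift20, which also serves the Golgi, at 489 and 519 CPM against 135 and 135.

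In the other direction, 6 of 2194 genes of at least 50 CPM in other epithelial cells of both libraries (0.273%) were at least 8-fold lower in ciliated cells, and they are genes known from alveolar cells: Lyz1, Napsa, Ager, Sftpa1, Cd74 and Lcn2, of which Cd74 also marks immune cells. Napsa, a protease that processes surfactant protein, was at 65.7 and 46.6 CPM against 589 and 514, and Cd74 at 12.1 and 8.31 CPM against 101 and 134. The ciliated sums include cells with RNA of other types, described below, so genes of those types can miss this limit. Sftpc missed it, at 3429 and 7966 CPM in all ciliated cells against 47148 and 53509 CPM in other epithelial cells. In the 54 and 39 ciliated cells without such RNA it was at 140 and 135 CPM. Sftpc was among the genes that chose those cells, and the count of 6 was not repeated in them.

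The 22 Notch genes listed summed to 925 and 1053 CPM in ciliated cells, against 1098 and 1511 CPM in secretory cells and 3028 and 2755 CPM in other epithelial cells. The gap to other epithelial cells lay in Dlk1, a non-canonical ligand, at 148 and 409 CPM in ciliated and 2421 and 2172 CPM in other epithelial cells, and without it the sums were 777 and 644 CPM against 606 and 583 CPM. Single genes lay on both sides of secretory cells. Jag1, a ligand, was at 101 CPM (88.5 to 114) and 96.1 CPM (83.4 to 110) in ciliated cells, against 33.1 and 20.7 in secretory cells, and Jag2 at 32.6 and 28.2 CPM against 3.08 and 0.369. Hes1, a target of the pathway, ran the other way, at 307 and 237 CPM against 690 and 648 in secretory cells. None of the 4 Notch genes at 50 CPM in both libraries was 8-fold higher in ciliated than in other epithelial cells. Of the Cxcl12 axis, ciliated cells held 3 and 0 UMIs of Cxcl12, 15 and 12 UMIs of its receptor Cxcr4 (6.28 and 5.54 CPM) and 10 and 1 UMIs of the scavenging receptor Ackr3, too few to compare.

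The cells varied by stage of differentiation. UMIs of 7 genes of centriole amplification and its regulators (Deup1, Ccno, Cdc20b, Mcidas, Gmnc, Myb and Foxn4) were found after thinning to 2000 UMIs in 54.9% (43.5 to 65.9%) and 53.0% (40.3 to 65.4%) of ciliated cells, and in 2.51% and 2.74% of other epithelial cells. These shares rested largely on Myb, which made up 51.6% and 36.7% of the stage UMIs of ciliated cells and was found in 81 of 82 and 62 of 66 of them. Without Myb, a choice made after the values were seen, the shares were 23.2% (14.6 to 33.8%) and 30.3% (19.6 to 42.9%), beside 2.51% and 2.55% of other epithelial cells. With all 7 genes most cells held few of them, with a median of 2.98 and 3.98 UMIs per 10000 UMIs of the cell. At 10 or more per 10000, a limit set after the values were seen, stood 8 of 82 cells (9.76%, 4.31 to 18.3%) and 8 of 66 (12.1%, 5.38 to 22.5%). In the library labelled null no cell lay between 6.48 and 11.2, whereas in that labelled control the values ran on, from 9.73 just below the limit to 10.4 just above it.

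A larger set of such cells lay just outside the selection. Barcodes with Foxj1 but with a summed Ccdc153 and Tmem212 value below 3 numbered 19 and 31, and in 15 and 18 of them that sum was 0. Their median of stage UMIs was 18.6 and 20.4 per 10000, and 17 of 19 (89.5%, 66.9 to 98.7%) and 28 of 31 (90.3%, 74.3 to 98.0%) held 10 or more, against 0 of 359 and 0 of 550 other epithelial cells, which allows a share of up to 0.836% and 0.545%. At the limit itself, 2 cells of each library had a sum from 3 to below 4, and 0 and 1 cell had a sum from 2 to below 3. Without Myb, 16 of 19 and 27 of 31 of these cells still held 10 or more, and 5 of 82 and 5 of 66 ciliated cells. The selection by Ccdc153 and Tmem212 thus left most cells with abundant centriole-stage RNA outside it.

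**Figure D2:**
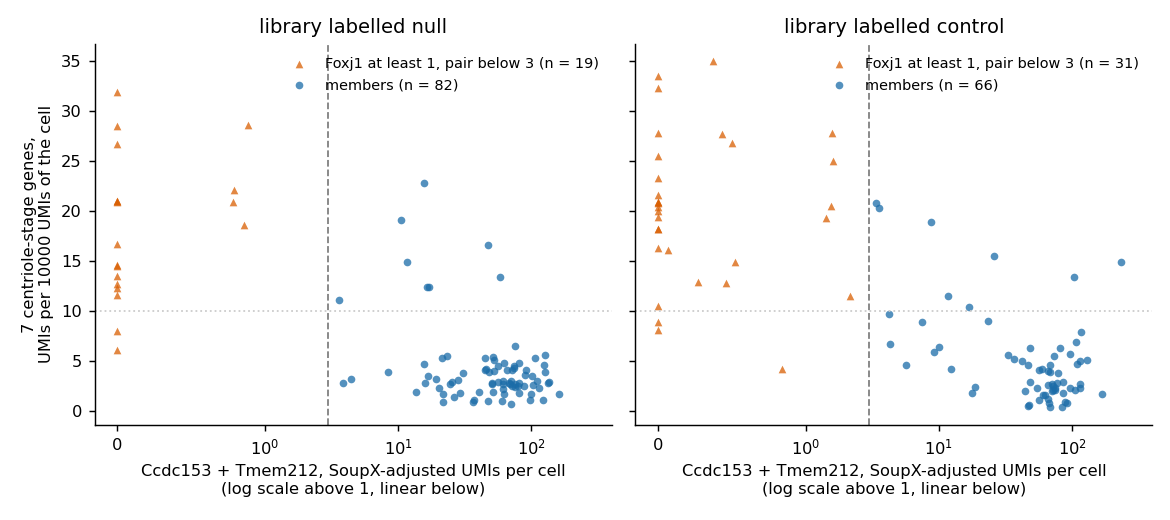
Each point is 1 cell, with its SoupX-adjusted Ccdc153 plus Tmem212 value (log scale above 1, linear below) on the x axis and UMIs of the 7 centriole-stage genes per 10000 UMIs of the cell on the y axis, for the library labelled null (left) and that labelled control (right). Circles are the 82 and 66 ciliated cells and triangles the 19 and 31 cells with Foxj1 but a sum below 3 (dashed line); 17 and 28 triangles lie above the dotted line at 10, and 8 circles in each library.

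These 3 sets of cells, namely those outside the selection, the selected cells at 10 or more stage UMIs per 10000 and the remaining selected cells, are set side by side below, the first library always that labelled null. Stage genes and the Ccdc153 and Tmem212 sum chose the sets, so the values are a description. The selected cells at 10 or more were also deeper, at a median of 37338 and 45192 UMIs, than the remaining ones at 22888 and 24586. Deup1 was at 648, 654 and 50.9 CPM in the library labelled null and at 723, 665 and 117 CPM in that labelled control. Ccno, which centriole amplification needs, was at 454, 236 and 32.0 CPM and at 377, 251 and 30.9 CPM. Mcidas was at 147, 58.3 and 0.484 CPM and at 187, 134 and 12.7 CPM. All 3 were lowest in the remaining ciliated cells.

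Several genes outside the 7 were arranged alike and others were not. The kinase gene Plk4, which starts centriole duplication, was at 263, 110.5 and 10.2 CPM and at 269, 183 and 47.4 CPM over the same 3 sets. Cdk1 was at 283, 267 and 32.0 CPM and at 325, 265 and 42.4 CPM, and Cdc20 at 238, 310.0 and 54.3 CPM and at 266, 265 and 50.1 CPM. Ccdc78, also of deuterosomes, ran the other way, at 26.5, 190 and 240 CPM and at 24.8, 211 and 241 CPM. Ube2c, of mitosis, was at 26.5, 67.5 and 51.8 CPM in the library labelled null, lowest in the first set, and at 31.9, 48.5 and 18.2 CPM in that labelled control. The proliferation marker Mki67 stayed low, at 14.3, 21.5 and 8.72 CPM and at 13.01, 8.56 and 3.31 CPM, and so no higher than 21.5 CPM where other epithelial cells had 20.9 and 18.01 CPM. A list of 20 cell cycle genes summed to 1043, 1578 and 354 CPM and to 1228, 1241 and 409 CPM, beside 347 and 268 CPM in other epithelial cells.

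Most axonemal and apical genes named here were lower in the cells outside the selection, and some of them were highest in the remaining ciliated cells. The axonemal gene Tekt1 was not lowest outside in both libraries, at 319.9, 555.5 and 412 CPM in that labelled null and at 403, 485 and 397 CPM in that labelled control. Sntn had 0 UMIs in the 19 and 31 cells outside, which allows at most 6.11 and 3.55 CPM, 89.0 and 188 CPM in the selected cells at 10 or more stage UMIs and 350 and 308 CPM in the remaining ones. Tppp3 was at 408, 1501 and 2751 CPM and at 483, 1124 and 2586 CPM. Dnah9 was at 18.3, 95.1 and 203 CPM and at 28.4, 94.2 and 115 CPM. Dnah5 was lowest in the first set of both libraries, with 42.8, 123 and 219 CPM in that labelled null, but 60.3, 180 and 145 CPM in that labelled control, where the last set was below the second. Others were highest in the second set, with Rsph1 at 1412, 2526 and 1815 CPM and at 1767, 2431 and 1826 CPM, and Dynlrb2 at 1141, 1829 and 1590 CPM and at 1395, 1800 and 1507 CPM. The lists divided in the same way. Radial spoke genes summed to 3299, 5914 and 5124 CPM and to 3801, 6037 and 4944 CPM, and the outer arm and assembly factor lists were likewise highest in the second set of both libraries. Inner arm genes summed to 1164, 2222 and 2998 CPM and to 1176, 2422 and 2644 CPM, and the central pair, nexin link and doublet lists were likewise highest in the last. Selected cells with RNA of other types, described below, had lower motile cilium sums, at 30603 and 29556 CPM against 52329 and 54804 CPM. Of the 28 and 27 such cells, 2 and 4 were in the second set and the others in the last. Their part in the order of the sets was not tested. Foxj1, which the selection used, was at 450, 408 and 416 CPM and at 445, 522 and 336 CPM. Hes1 was low in both sets with stage genes, at 91.7 and 95.1 CPM and at 128 and 85.6 CPM, and at 341 and 267 CPM in the remaining ciliated cells. Airway secretory markers were also highest in the remaining cells, at 6286, 2213 and 12184 CPM and at 6618, 8550 and 16373 CPM over the 3 sets. The counting intervals of Hes1 in the first and second sets overlapped, at 66.9 to 123 and 64.6 to 135 CPM in the library labelled null. In that labelled control they were 105 to 154 and 57.8 to 122 CPM. The part of secretory RNA in the Hes1 levels was not tested.

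**Figure D3:**
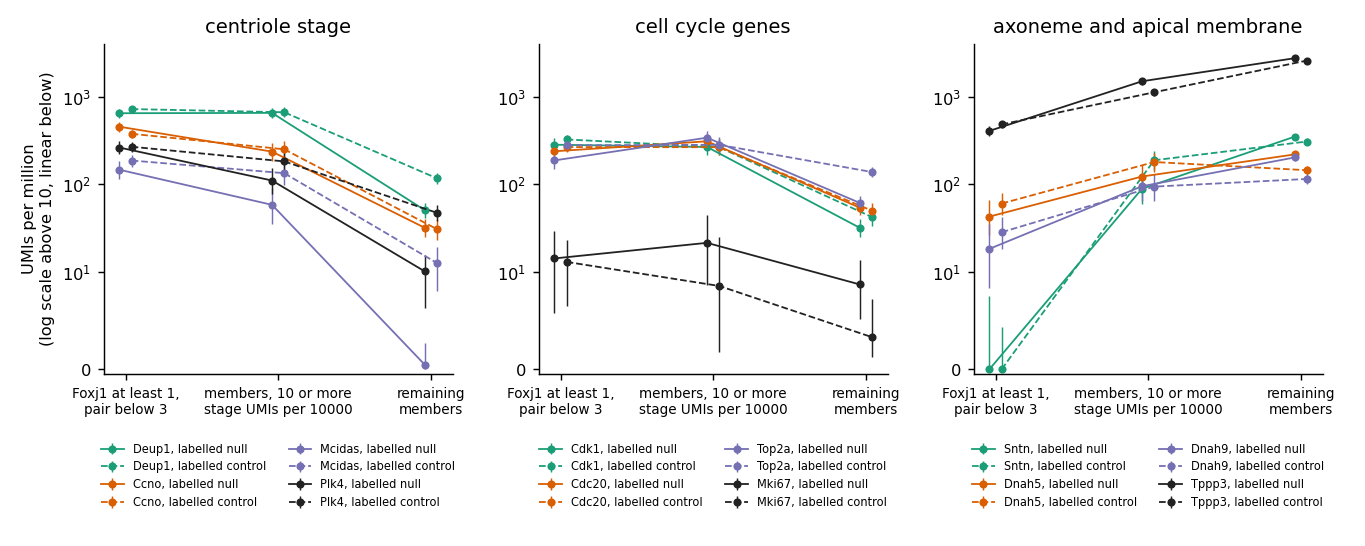
Levels in CPM (log scale above 10, linear below) of named genes in the cells with Foxj1 but a Ccdc153 plus Tmem212 sum below 3, the selected cells at 10 or more stage UMIs per 10000 and the remaining selected cells, with the library labelled null as solid and that labelled control as dashed lines; bars are exact Poisson intervals at 95%. Deup1, Ccno, Mcidas and Plk4 (left) and Cdk1, Cdc20 and Top2a (middle) are lowest in the last set, Mki67 is at or below 21.5 throughout, and Sntn and Tppp3 (right) are higher in each set than in the one before in both libraries.

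Over all genes, the selected cells at 10 or more stage UMIs per 10000 were at least 2-fold above the remaining ones in both libraries for 162 of 3453 genes (4.69%) and at least 2-fold below for 106 (3.07%). Mcidas, Shisa8 and Ccno led the first list, of which Mcidas and Ccno chose the cells. It also held Aurka, a mitotic kinase gene at 92.1 against 12.6 CPM and 88.4 against 12.7 CPM, and Hyls1, a centriolar gene at 117 against 2.91 CPM and 117 against 22.6 CPM, beside Cklf, Acot7 and Tsga10ip. The second list held, among others, Krt15, Fabp5, Cldn18 and Sftpc (76.7 against 3958 CPM and 2040 against 9110 CPM), which touches the next point.

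Many ciliated cells held abundant RNA of other epithelial types. Scgb3a2, a secretoglobin of secretory cells, had a lowest, median and highest count of 0, 3.5 and 2084 UMIs per cell in the library labelled null and 0, 2 and 3008 in that labelled control. At a limit of 10 UMIs per 10000, set after the values were seen, 19 and 21 cells held 98.2% and 99.5% of its UMIs, and the remaining ciliated cells had 136 and 82.1 CPM. The same was true of Sftpc, the surfactant gene of alveolar type 2 cells, of which 4 and 13 cells held 96.8% and 98.7%. With Scgb1a1 added, 22 of 82 cells (26.8%, 17.6 to 37.8%) and 27 of 66 (40.9%, 29.0 to 53.7%) passed the limit for at least 1 of these 3 genes. Their median depth was 40024 and 46150 UMIs.

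Endothelial RNA was the less common kind. At least 10 UMIs of 5 endothelial genes were present in 8 and 1 cells, which held 86.8% and 47.7% of all such UMIs, although the selection had asked for no adjusted Pecam1 or Cdh5. Unadjusted UMIs of Pecam1 or Cdh5 were present in 25 and 8 of the selected cells. Cells with either kind of RNA numbered 28 and 27. Their summed motile cilium genes came to 30603 and 29556 CPM and their Foxj1 to 287 and 266 CPM, against 52329 and 54804 CPM and 530.5 and 521.0 CPM in the 54 and 39 cells with neither. Scrublet, which scores simulated doublets, called 3 of 82 and 2 of 66 ciliated cells, of which 1 and 0 were among those with either kind.

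Sex-linked genes added a count that needs no epithelial gene. The library labelled null held cells with Xist and cells with Y-linked genes, and that labelled control held Y-linked genes almost alone. UMIs of both Xist and a Y-linked gene were present in 21 of 82 ciliated cells of the library labelled null, with a median depth of 40865 UMIs, in 35 of its 359 other epithelial cells and in 716 of its 9067 kept cells. At limits of 5 Xist and 2 Y-linked UMIs, 15 of the 82 cells remained, of which 12 held epithelial or endothelial RNA of the kinds above. Free RNA, joined cells and their parts in these values were not tested.

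**Figure D4:**
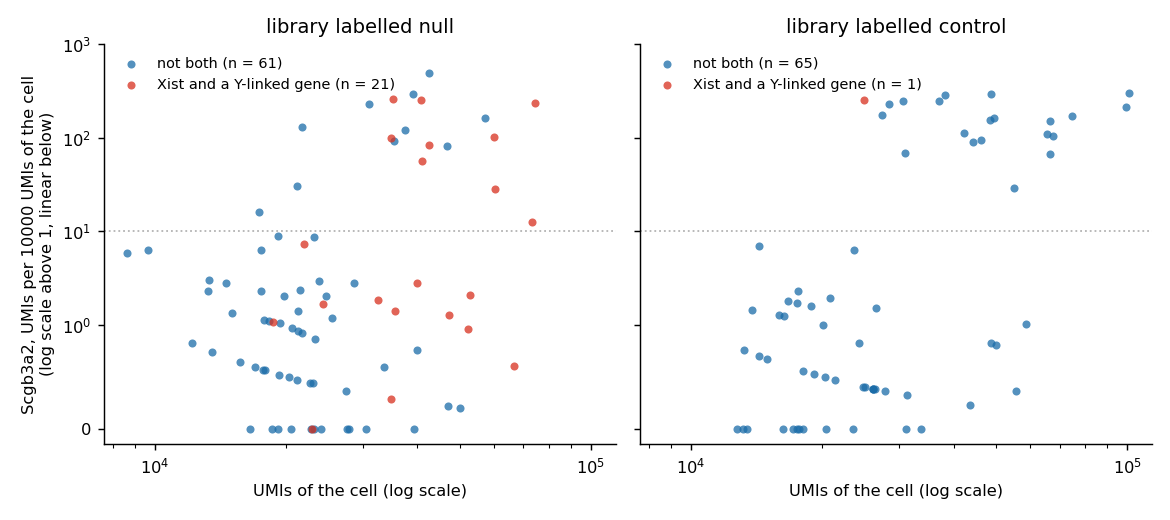
Each point is 1 of the 82 ciliated cells of the library labelled null (left) or 66 of that labelled control (right), with the UMIs of the cell on the x axis (log scale) and Scgb3a2 UMIs per 10000 UMIs of the cell on the y axis (log scale above 1, linear below). The 19 and 21 cells above the dotted line at 10 have a median of 40865 and 48365 UMIs, against 21797 and 20247 in the cells below it, with overlapping ranges, and red points are the cells with both Xist and a Y-linked gene, 21 on the left and 1 on the right.

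Between the libraries, ciliated cells were close. Of 3470 genes of at least 50 CPM in 1 library, 23 (0.663%) were at least 2-fold higher in the library labelled null and 21 (0.605%) at least 2-fold lower, and 98.7% lay within 2-fold, with a median absolute log2 ratio of 0.152. With SoupX-adjusted values the counts were 248 and 44, and with the mean of single cells 21 and 9. SoupX had removed 18.05% of UMIs in the library labelled null and 39.74% in that labelled control, and 15 of the 23 and 16 of the 21 genes kept their direction in its values. Secretory cells of the same libraries gave 15 higher (0.610%) and 32 lower (1.30%) of 2461 genes. Only 1 and 2 of the ciliated genes were past 2-fold in the same direction in all other kept cells, which pool all types. In secretory cells alone several genes named below were past 2-fold in the same direction. Their log2 ratios there were -5.19 for Sftpc, -3.87 for Dlk1, -1.95 for Cldn18, -1.78 for Ndnf, 1.11 for S100a6 and 1.10 for Ube2c. Ager (-0.58), Retnla (-0.89), Tgfb2 (-0.40), Plk4 (0.31) and Il18r1 (-0.03) lay within 2-fold there, and Lyz1 (-6.62) went the other way.

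Motile cilium genes lay within 2-fold but for 1. Of 128 genes in the motile lists (dynein arms and their assembly, radial spokes, nexin links, central pair and doublet proteins), 103 reached 50 CPM in 1 library, 1 was past 2-fold (Cfap52, whose alternatives are given below), and their median log2 ratio was 0.10, beside 0.07 for all 3470 genes; the median was -0.37 with SoupX-adjusted values and -0.08 without the cells that held RNA of other types, so no direction is given. Within 2-fold, counting intervals lay above equality for 26 of the 103 genes and below it for 4, beside 654 and 280 of all 3470. Their ratios ran from -0.28 for Ccdc103, a dynein docking gene, to 1.08 for Cfap52. Dnah9 stood at 0.75 and Dnah5 at 0.45. Of the 440 ciliated genes, 2 were past 2-fold higher (AU040972 and Cfap52) and 0 lower, beside 0.663% and 0.605% of all genes. No multiciliation regulator at 50 CPM was past 2-fold. Below that level Mcidas stood at 8.37 CPM (5.11 to 12.9) and 32.3 CPM (25.2 to 40.8), with UMIs in 8 of 82 and 19 of 66 cells.

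**Figure D5:**
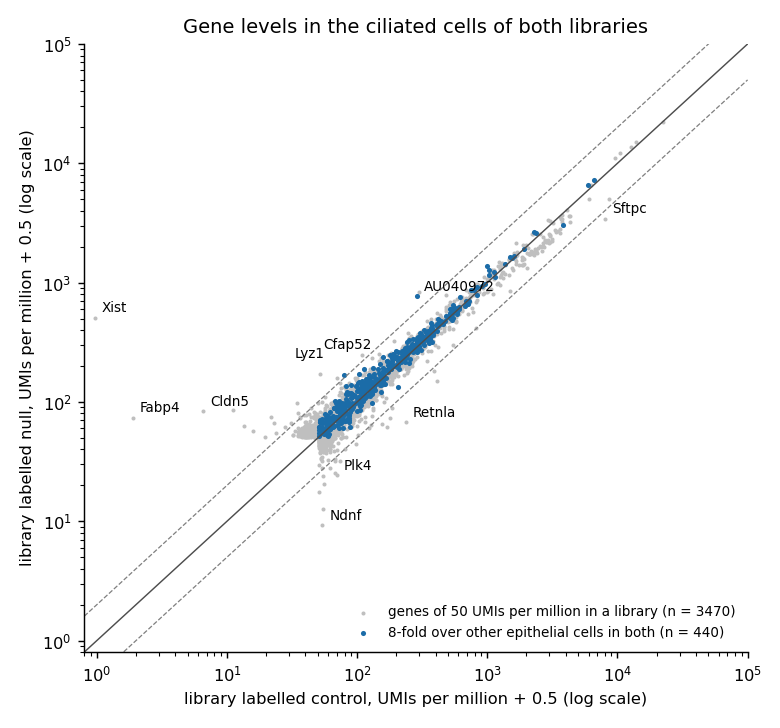
Each point is 1 of 3470 genes, with its level in the ciliated cells of the library labelled control on the x axis and of that labelled null on the y axis (CPM plus 0.5, log scales); blue points are the 440 genes at least 8-fold higher in ciliated than in other epithelial cells, the solid line marks equality and dashed lines 2-fold. Blue points follow the solid line, with AU040972 and Cfap52 past the upper dashed line, and Xist, Fabp4 and Cldn5 lie far above it.

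Several of the genes past 2-fold upwards were spread over many cells. AU040972, which lies at chr11:79481719-79484031 (minus strand, GRCm38) in the GENCODE M21 annotation, was at 768 CPM (733 to 804) in the library labelled null and 287 CPM (265 to 311) in that labelled control, a log2 ratio of 1.42 (1.29 to 1.55), with UMIs in 78 of 82 and 54 of 66 cells. Cfap52, an inner doublet protein with its gene at chr11:67924806-67965651 (minus strand), was at 169 CPM (153 to 186) and 79.4 CPM (68.0 to 92.2), with UMIs in 81 and 60 cells. Its log2 ratio of 1.08 fell short of 2-fold with SoupX-adjusted values (0.62), the mean of single cells (0.84), stricter marker limits (0.98) and without the cells that held RNA of other types (0.78), and that of AU040972 with SoupX-adjusted values (0.97). Acox2, a peroxisomal oxidase of bile acid and branched lipid metabolism, was at 56.5 CPM (47.4 to 66.8) and 15.2 CPM (10.49 to 21.4), a log2 ratio of 1.86 (1.33 to 2.49), in 64 and 22 cells. S100a6, a calcium binding protein, was at 827 and 298 CPM (1.47, 1.34 to 1.60), and its ratio in secretory cells was 1.11. Il18r1, a receptor chain for interleukin 18, was at 158.5 and 69.7 CPM (1.18, 0.91 to 1.47), and its ratio was 0.94 with SoupX-adjusted values.

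Other genes named as higher were Upk3a (1.38), Ube2c (1.21), Enpp2 (1.19), Mpzl1 (1.10) and Aqp4 (1.04), each on the log2 scale. Enpp2 and Ube2c stood at 0.56 and 0.86 with the selection on unadjusted counts. With SoupX-adjusted values Enpp2 stood at 6.62, Mpzl1 at 6.44, Ube2c at 2.51, Upk3a at 1.18 and Aqp4 at 0.62. Unadjusted levels were 79.5 and 34.6 CPM for Enpp2 and 65.7 and 30.5 CPM for Mpzl1. Their large adjusted ratios thus came with the adjustment and are not read as sizes of a difference. Lyz1, at 1.72, rested on 1 cell that held 98.8% of its UMIs in the library labelled null, and its ratio was -2.67 once the richest cell of each library was left out. Cldn5 (83.3 and 6.0 CPM in the library labelled null and control) and Fabp4 were past 2-fold only in the unadjusted UMIs. The 8 cells with endothelial RNA are described above, and for Fabp4 1 cell held 94.3% of its UMIs in the library labelled null, without which it was at 4.25 CPM.

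Several genes lower in the library labelled null are known from alveolar cells. Sftpc was at 3429 CPM (3355 to 3504) and 7966 CPM (7847 to 8086), a log2 ratio of -1.22, Ager, the marker of alveolar type 1 cells, at 60.7 and 170 CPM (-1.47), Cldn18 at -1.25, Retnla at 66.9 and 236 CPM (-1.81) and Dlk1 at 148 and 409 CPM (-1.46). Without the cells that held RNA of other types, Sftpc, Ager and Cldn18 turned to 0.06, 0.65 and 0.54 and Retnla to -0.45. For Sftpc that follows from how those cells were chosen. With the selection on unadjusted counts Sftpc stood at -0.44, Cldn18 at -0.85 and Dlk1 at -0.77, all short of 2-fold.

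Tgfb2 and Plk4 were lower as well. Tgfb2, a growth factor, was at 12.1 CPM (8.13 to 17.4) and 54.5 CPM (45.1 to 65.3), a log2 ratio of -2.12 (-2.81 to -1.57), with UMIs in 22 of 82 and 37 of 66 cells, and stood at -2.24 without the cells that held RNA of other types. Plk4 was at 23.8 CPM (18.1 to 30.9) and 69.3 CPM (58.6 to 81.3), or -1.52 (-2.00 to -1.09), and at -0.83 without them and -0.88 with the stricter marker limits. Ndnf, a secreted factor, was at 8.79 and 53.1 CPM (-2.53) and at -1.36 without them. Of the 24 genes named by ratio, 15 were past 2-fold in the same direction with the selection on unadjusted counts, 16 with the mean of single cells and 20 with SoupX-adjusted values, and 10 stayed past 2-fold in the same direction without those cells, among them Acox2, S100a6, AU040972, Ube2c, Il18r1, Aqp4, Ndnf, Tgfb2 and Dlk1.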

How the data were processed

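Lung cells of 2 whole E18.5 libraries were analysed, 1 per genotype label, grouped by their labels. The authors made 3′ libraries, aligned reads to mm10 with Cell Ranger 3.1 and deposited the raw counts of UMIs. The authors further deposited a SoupX version of both whole-lung tables, whose values are expected counts with free RNA subtracted and hold fractions. SoupX used, among other genes, Lyz1, Fos and Scgb1a1, and its tables lack Gm42418.

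The selection was read on the adjusted values and levels were summed from unadjusted counts (numpy 2.4.6, scipy 1.17.1, pandas 2.3.3) as CPM with exact Poisson intervals. Clopper-Pearson intervals were used for shares and Newcombe's for their differences, and 3 counts set the limit where none was found. Ratios add 0.5 CPM over genes of 50 CPM and carry conditional binomial intervals. Scripts were tested on simulated data. Doublets were scored with Scrublet (scanpy 1.11.5) and kept.

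Named genes are the 20 with the largest lower ratio over other epithelial cells, 12 per direction by ratio between libraries, the sign being the same with SoupX (haemoglobin, mitochondrial, ribosomal protein, sex-linked and selection genes left out), the leading genes of 32 lists, and Cxcl12, Cxcr4 and Ackr3. Genes named outside this rule, among them Xist, Cldn5, Fabp4 and genes of the stage contrast, were named after their values were seen. Cells and lists were chosen with earlier results of these data known. The libraries held 100407365 and 75420386 UMIs in kept cells.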

Additional observations from a re-analysis of the deposited data

How the results depend on the processing

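Each result rests on 1 library per genotype label and on 82 and 66 cells, so depth limits it to genes of at least 50 CPM, and differences between lungs cannot be told apart from differences between libraries. No paired analysis was possible because each group has 1 library. Alternatives named with "after the data were seen" were added later. The numbers of ciliated cells, of genes 2-fold apart and of genes 8-fold over other epithelial cells stayed within 1.5 times under the other alternatives tried; the cause of the changes listed here was not tested unless it follows from the alternative. Genes 2-fold apart numbered 248 higher and 44 lower with SoupX-adjusted values, 7 and 9 at a level of 100 CPM, where fewer genes are tested, and 9 lower with the mean of single cells. At 100 CPM 284 genes were 8-fold over other epithelial cells. The motile cilium median log2 ratio (0.10) was 0.08 with stricter marker limits (sum 6, Foxj1 2), 0.12 without doublet calls, 0.05 without haemoglobin, mitochondrial and ribosomal protein genes, -0.37 with SoupX-adjusted values and -0.00096 with the mean of single cells, and 0 of its genes were past 2-fold with the stricter limits, with SoupX or with the mean of single cells. The share of cells with a stage UMI in the library labelled null was 43.1% with the selection on unadjusted counts, and at 4000 UMIs it was 71.95% and 75.76%, as deeper thinning leaves more UMIs. Without Myb, after the data were seen, it was 23.17% and 30.3%. At least 3 stage UMIs, the limit first set, were held by 78 and 61 cells, and 10 per 10000, set after the data were seen, by 8 and 8. Without the cells that held RNA of other types, also after the data were seen, 54 and 39 cells remained, 37 genes were higher and 38 lower, the motile median was -0.08 and 0 motile genes were past 2-fold. There Ager (0.65), Chia1 (0.18), Cldn18 (0.54), Sftpc (0.06), Pla2g1b (0.30) and Dram1 (1.20) reversed, and Lyz1 was -2.67 without its richest cells. Over the 24 named ratios and all alternatives, 228 of 288 values kept direction and moved by less than their counting interval.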
